A study of Mus musculus with 48 samples.

Results

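Some start sites of RNA could not be given to a single gene in this study, and their tag clusters carry the mark !multi in place of a symbol. A tag cluster is a short stretch of one strand where the 5′ ends of capped RNA were found by CAGE (cap analysis of gene expression). The mark alone chose the clusters described here, with no measured value involved. It was carried by 356 of 18025 clusters in the table of the DO11.10 hybridoma and by 371 of 17272 clusters in the table of primary CD4+ T cells, together 727 of 35297. All of them passed the filter on low values. The labels do not say what the mark means, and it is read here as an assignment to more than one gene.

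The 48 mouse libraries came from total RNA. One system was the DO11.10 T hybridoma (strain BALB/c x AKR/J), whose receptor recognises an ovalbumin peptide. It received the peptide, pOVA, at 0, 1, 10, 100, 1000 or 10000 nM. CD4+ T cells of BALB/cCrSlc mice received 2C11, an antibody to CD3, at 0, 10, 100, 1000 or 10000 ng/ml. PD-1 is a receptor that restrains T cell activation. At each dose one group had PD-1 engaged (labelled _L1) and another had not. There were 2 libraries per group below 10000 and 3 at 10000. How PD-1 was engaged, how long the cells were stimulated, and whether replicates were separate cultures or animals is not in the labels. P-values then measure only the spread between these samples, which may be technical. In bulk RNA, fewer cells of a type and less RNA per cell cannot be told apart.

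Library totals, in 1e6 tags and recovered from the steps between low values, were 7.79 to 19.7 (hybridoma) and 4.42 to 22.8 (CD4 cells). Of 10 T cell markers, 9 had a named cluster in the hybridoma (Cd4 had none) and 10 in CD4 cells. The 12 markers of B cells and other presenting cells all had a cluster in both tables, and they reached 1206 RPM in replicate 2 of the unengaged dose 0 group of the hybridoma, and 961 RPM in replicate 2 of its engaged partner. The other 24 hybridoma libraries held 89.1 to 288 RPM of them. In CD4 cells this sum was 545 to 1237 RPM, and it was 856 to 1237 RPM in the engaged libraries at 100 ng/ml and above. Myeloid markers had a cluster for 1 of 8 genes in either system (Cst3), cytotoxic and NK markers for 1 of 6 in the hybridoma and 3 of 6 in CD4 cells, and erythroid markers for none of 3.

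Several gene arrangements put more than one gene at one start site. Small nucleolar RNAs and many microRNAs are cut from the introns or transcripts of host genes, so one capped RNA serves a long host and a small RNA annotated inside it. Many ribosomal protein genes and the Snhg, Gas5 and Zfas1 genes are such hosts. Their transcripts often start in a terminal oligopyrimidine tract, a C followed by further pyrimidines, which ties the translation of an mRNA to growth signals. Histone genes lie in dense arrays that are transcribed mainly during DNA replication. The T cell receptor and immunoglobulin loci hold many annotated segments over the same stretch of DNA.

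Sequences around RefSeq starts are shown here for a selection of the hosts described below, namely the ribosomal protein hosts of the most abundant clusters and hosts whose changes are given in full, so that these starts can be compared with and without a motif. Rps20 and Rpl32 had no entry. Each is 60 bases long in build GRCm38.p6, from 40 bases before the annotated start to 20 bases from it onward, on the strand of the gene. Capitals mark CTTTC or CTTTT, 2 short pyrimidine motifs searched on both strands that may overlap each other.
Rps12, chr10:23787190-23787249, minus: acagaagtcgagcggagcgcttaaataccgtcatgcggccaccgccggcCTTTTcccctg
Rpl27a, chr7:109519155-109519214, plus: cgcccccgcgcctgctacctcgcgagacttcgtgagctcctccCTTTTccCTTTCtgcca
Rpl13, chr8:123102310-123102369, plus: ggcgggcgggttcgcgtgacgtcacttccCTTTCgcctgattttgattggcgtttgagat
Rps13, chr7:116334171-116334230, minus: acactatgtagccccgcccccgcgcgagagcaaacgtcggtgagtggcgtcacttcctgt
Rps16, chr7:28350649-28350708, plus: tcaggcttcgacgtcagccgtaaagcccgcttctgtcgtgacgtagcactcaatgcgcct
Rpsa, chr9:120127726-120127785, plus: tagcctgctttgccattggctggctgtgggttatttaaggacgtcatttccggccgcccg
Rps3, chr7:99483690-99483749, minus: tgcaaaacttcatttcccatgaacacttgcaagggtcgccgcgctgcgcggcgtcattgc
Rpl23, chr11:97782420-97782479, minus: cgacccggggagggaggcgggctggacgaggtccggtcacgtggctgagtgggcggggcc
Rabggtb upstream start, chr3:153912947-153913006, minus: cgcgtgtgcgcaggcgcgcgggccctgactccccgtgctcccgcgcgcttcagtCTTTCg
Rabggtb downstream start, chr3:153910948-153911007, minus: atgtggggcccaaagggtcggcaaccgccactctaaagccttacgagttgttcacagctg
Tomm20, chr8:126945902-126945961, minus: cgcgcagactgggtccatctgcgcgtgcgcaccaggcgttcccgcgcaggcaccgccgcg
2410006H16Rik, chr11:62602837-62602896, plus: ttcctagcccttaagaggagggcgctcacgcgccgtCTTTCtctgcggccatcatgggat
Gas5 upstream start, chr1:161034561-161034620, plus: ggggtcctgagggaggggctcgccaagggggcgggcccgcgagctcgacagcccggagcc
Gas5 downstream start, chr1:161035126-161035185, plus: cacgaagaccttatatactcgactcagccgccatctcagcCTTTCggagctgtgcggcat
Zfas1, chr2:167062894-167062953, plus: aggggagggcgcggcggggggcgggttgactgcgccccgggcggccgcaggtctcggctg
Dancr, chr5:74093020-74093079, plus: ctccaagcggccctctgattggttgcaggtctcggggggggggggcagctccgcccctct

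Either motif stood on the gene's strand in 14.2% of 32851 RefSeq promoter windows of this length, and on the other strand in 13.6%. Among ribosomal protein hosts it stood in 6 of 15 windows (40%, 14 of 19 genes matched), among the Snhg, Gas5, Zfas1 and Dancr hosts in 4 of 10 (40%), and among all hosts in 24 of 101 (23.8%, 79 of 100 genes matched). A match is a description of these letters and no evidence of a site. The 2 RefSeq starts of Gas5 lie 565 bases apart, and the first bases of the 2 clusters described for it below lie 586 bases apart in mm9. The genome coordinates of clusters are given as deposited, in mm9, and whether they count from 0 or 1 is not stated.

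The clusters stood in groups. Joined on one strand across gaps of up to 10 kb, the hybridoma clusters formed 210 loci and the CD4 clusters 240, and 142 and 182 of these loci held 1 cluster. The largest locus of the hybridoma held 24 clusters at chr6:41482930-41494025, and 27 CD4 clusters lay at the same place, the T cell receptor beta locus. Clusters that share a locus may share transcripts, so they are not independent of each other.

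Their levels were spread more widely than those of clusters with 1 symbol. The median level over all libraries was 11.2 RPM (tags per 1e6 tags of the library) in the hybridoma, beside 14.3 RPM for named clusters and 3.08 RPM for clusters with no symbol. In CD4 cells these medians were 12.7, 14.5 and 2.98 RPM. At the upper end the order turned, since the 90th percentile was 231 RPM against 99.9 RPM for named clusters in the hybridoma and 193 against 89.0 RPM in CD4 cells. Levels of at least 1000 RPM were reached by 14 hybridoma clusters (3.93%, named clusters 0.985%) and by 16 CD4 clusters (4.31%, named clusters 0.807%). Of the 100 most abundant clusters of each table, 9 and 13 carried the mark. The 10 most abundant of them held 51.7% of the RPM of the marked clusters in the hybridoma and 57.9% in CD4 cells. With 1.98% and 2.15% of the clusters, they took 5.10% and 6.70% of the mean RPM.

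In the hybridoma that share lay between 4.70 and 5.58% of the tags in clusters over all 26 libraries, with 4.82 ± 0.0604% (SD, n = 2) at dose 0 and 5.05 ± 0.152% (n = 3) at 10000 nM without engagement. In CD4 cells it was 6.74 ± 0.125% (n = 2) at dose 0, 6.07 ± 0.0736% (n = 2) at 1000 ng/ml and 6.65 ± 0.219% (n = 3) at 10000 ng/ml. With engagement the CD4 shares were 7.23 ± 0.0116% (n = 2) at dose 0 and 6.95 ± 0.0318% (n = 2) at 1000 ng/ml. The engaged libraries lay above the unengaged ones without overlap at 0, 10, 100 and 1000 ng/ml, and overlapped them at 10000 ng/ml (6.35 ± 0.182%, n = 3).

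**Figure D1:**
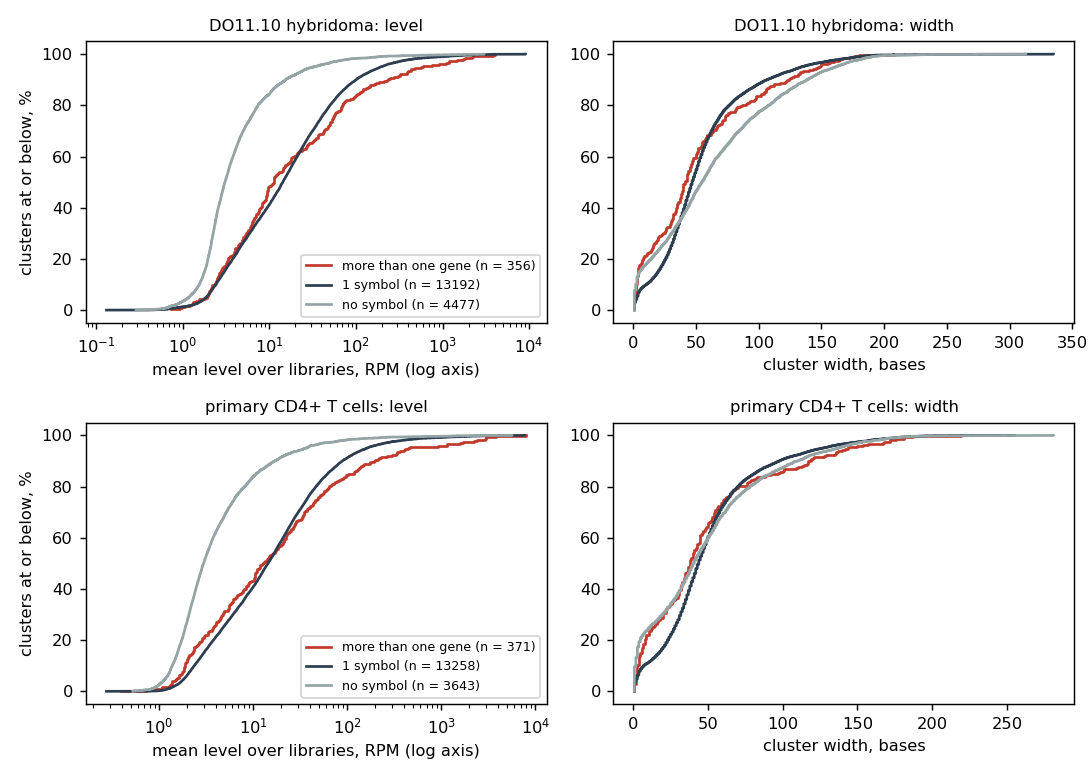
Distribution of the mean level (RPM, log axis) and of the width (bases) of clusters assigned to more than one gene, of clusters with 1 symbol and of clusters with no symbol, in each table. The clusters assigned to more than one gene reach at least 1000 RPM in 3.93% (hybridoma) and 4.31% (CD4) of cases, and 21.3% and 21.8% of them are at most 10 bases wide.

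Compared with named clusters, more of the widths lay at both ends of the scale. The median width was 41 bases in the hybridoma (named clusters 47) and 38 bases in CD4 cells (named clusters 44). Clusters of at most 10 bases made up 21.3% and 21.8% of those with the mark, beside 9.95% and 11.3% of named clusters. Among clusters with no symbol they made up 18.0% and 24.6%. Clusters over 100 bases made up 16.3% and 13.7% of the marked clusters, beside 11.5% and 9.30% of named clusters. Among clusters with no symbol these were 22.4% and 12.5%. The most abundant ones were the narrowest. At 1000 RPM and above the median was 7.5 bases in the hybridoma and 4.0 bases in CD4 cells, and 9 of 14 and 13 of 16 such clusters were at most 10 bases wide. Named clusters at that level had a median of 4.0 bases in both tables, and 101 of 130 and 88 of 107 were at most 10 bases wide.

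The widest ones differed in level and lay near different kinds of genes. In the hybridoma a cluster of 207 bases (chr11:120207545-120207751, minus) lay 2055 bases from a named Actg1 cluster, Actg1 being a cytoplasmic actin, and averaged 4.39 RPM. A cluster of 180 bases between Atxn2l and Cln3 (chr7:133709734-133709913, minus) reached 567 RPM in a stretch that holds Eif3c, a subunit of translation initiation factor 3. Another of 180 bases in the Taf1d stretch (chr9:15119967-15120146, plus) averaged 10.5 RPM. In CD4 cells the widest spanned 219 bases (chr1:74634551-74634769, minus), 97 bases from an opposite-strand cluster of Bcs1l, and averaged 10.8 RPM. A cluster of 187 bases between Fpgs and Sh2d3c (chr2:32568570-32568756, minus) averaged 6.41 RPM.

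Within 1 kb on the same strand, named clusters were seldom next to them. On the same strand a named cluster lay within 1 kb of 11% of the marked clusters in the hybridoma and of 9.16% in CD4 cells, while another named cluster lay that near to 31.4% and 32.4% of named clusters. For a named cluster, that neighbour could be another cluster of the same gene. Within 10 kb on the same strand the shares were 45.5% against 39.9% for named clusters in the hybridoma. In CD4 cells they were 35.3% against 40.4%. Within 1 kb on the opposite strand they were 9.27% against 16.2% in the hybridoma and 16.7% against 15.9% in CD4 cells. On either strand the median gap of the marked clusters was 6269 and 6115 bases, and 206 of 356 and 212 of 371 had a named cluster within 10 kb. Lists of neighbouring genes were sparse among named clusters too. Histone genes were the nearest named cluster within 10 kb of 7 hybridoma clusters (1.97%, named clusters 0.728%) and of 6 CD4 clusters (1.62%, named clusters 0.513%). Genes of the ribosomal protein, Snhg and Mir prefixes were nearest to 15 hybridoma clusters (4.21%, named clusters 1.26%), with Rpl10, Rpl12, Rpl13a, Rpl4, Rpl6, Rplp2 and Snhg5 among them. In CD4 cells they were nearest to 3 clusters (0.809%, named clusters 0.837%), with Mir17hg and Rpl13a. Mrps18b, a mitochondrial ribosomal protein gene, was nearest to 2 and 3 (named clusters near any Mrp gene 0.44% and 0.468%).

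Since no mm9 annotation was used, genes were placed by order alone: the annotated genes on the same strand between the 2 named clusters that flank a cluster were listed from a newer mouse annotation. Such a stretch can hold genes with no part in the cluster. A host of an annotated small RNA stood in the stretch of 203 hybridoma clusters (57.0%) and 142 CD4 clusters (38.3%). For named clusters of genes with a single cluster, treated the same way, the shares were 18.6% and 18.5%. Genes that overlap on the same strand stood in 79.5% and 67.1% of the stretches, beside 44.0% and 43.9% for those named clusters. Exactly 1 host was found for 170 hybridoma clusters (95 hosts) and 115 CD4 clusters (77 hosts). The clusters are grouped below by these stretches, and the groups were drawn up after values had been seen.

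The 10 most abundant clusters of each system give the character of the set. Rps20, a small-subunit ribosomal protein gene, was the only annotated host in the stretch of chr4:3762745-3762748 (minus, 4 bases), which held 3435 and 3538 RPM at dose 0 and 3842, 3720 and 3878 RPM at 10000 nM in the hybridoma. In CD4 cells the same 4 bases held 8265 and 8119 RPM at dose 0 and 8025, 6682 and 7667 RPM at 10000 ng/ml, the highest level of any cluster in that table. The groups did not overlap in either system, higher in one and lower in the other, and neither difference passed the test (adjusted p = 0.166 and 0.162 by limma). A single base of chromosome 10 (chr10:23507006-23507006, minus) held 3783 and 3511 RPM at dose 0 and 3869, 4049 and 4021 RPM at 10000 nM. Its stretch holds Rps12, another small-subunit gene, and 2 further hosts. In CD4 cells that base held 3944 and 3375 RPM at dose 0 and 4124, 3502 and 4255 RPM at the top dose, and the groups overlapped. Further ribosomal protein stretches among the top 10 were those of Rps13, Rpl32, Rps16, Rpl27a and Rpl13 in the hybridoma and of Rpsa, Rps16, Rpl13, Rps13 and Rps3 in CD4 cells. They averaged between 1214 and 1995 RPM in the hybridoma and between 1843 and 3034 RPM in CD4 cells. A cluster between Cast and Ell2 (chr13:75782311-75782313, plus) averaged 2193 RPM in the hybridoma and 3347 RPM in CD4 cells. The top 10 also held 2 histone clusters in the hybridoma, 1 in CD4 cells, and the Gas5 cluster in CD4 cells, all of which are described below.

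Stimulation of the hybridoma without engagement called more of these clusters higher than lower at 100, 1000 and 10000 nM. At 1 nM no cluster of any kind was called by limma (0% of all clusters tested, and 27 marked clusters at an unadjusted p under 0.05). At 10 nM none of the marked clusters was called (0.0278% of all, and 20 at an unadjusted p under 0.05), and DESeq2 on recovered tags called 1. At 100 nM 25 were higher and 7 lower, beside 5.76% and 2.91% of all clusters. At 1000 nM 57 were higher and 36 lower, beside 12.5% and 17.7% of all. At 10000 nM 57 of 356 were higher (16%, all clusters 13.8%) and 31 lower (8.71%, all clusters 16.2%). Their median log2 difference at that dose was 0.12, beside -0.07 over all clusters. Clusters with no symbol leaned further the same way, with 24.1% higher and 7.85% lower, and named clusters gave 10.2% and 19.2%. With engagement the same comparison called 54 marked clusters higher and 26 lower, beside 12.3% and 15.2% of all clusters. Without replicate 2 of the dose 0 group, which held most of the presenting-cell markers given above, 33 were higher and 20 lower at 10000 nM, and without both such libraries 34 were higher. The part of these markers in the result was not tested.

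CD4 cells also gave more higher than lower calls at 100, 1000 and 10000 ng/ml. At 10 ng/ml no cluster was called (0% of all clusters, 12 marked clusters at an unadjusted p under 0.05 by limma). At 100 ng/ml 51 were higher and 23 lower, beside 13.6% and 7.18% of all. At 1000 ng/ml 130 were higher and 92 lower, beside 28.1% and 29.9%. At 10000 ng/ml 126 of 371 were higher (34.0%, all clusters 26.2%) and 112 lower (30.2%, all clusters 38.2%), with a median log2 difference of 0.07 beside -0.15 over all clusters. Clusters with no symbol gave 23.4% higher and 35.4% lower at that dose, and named clusters 26.8% and 39.2%. With engagement 134 marked clusters were higher and 86 lower, beside 32.1% and 28.0% of all. The share of higher calls depended on scaling in CD4 cells, where other scalings moved the median of all clusters up by 0.12 to 0.16 on the log2 scale. It was 52.9% of the calls with the deposited library totals, 60.2% after quantile normalization, 61.9% with edgeR and 62.9% with DESeq2.

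**Figure D2:**
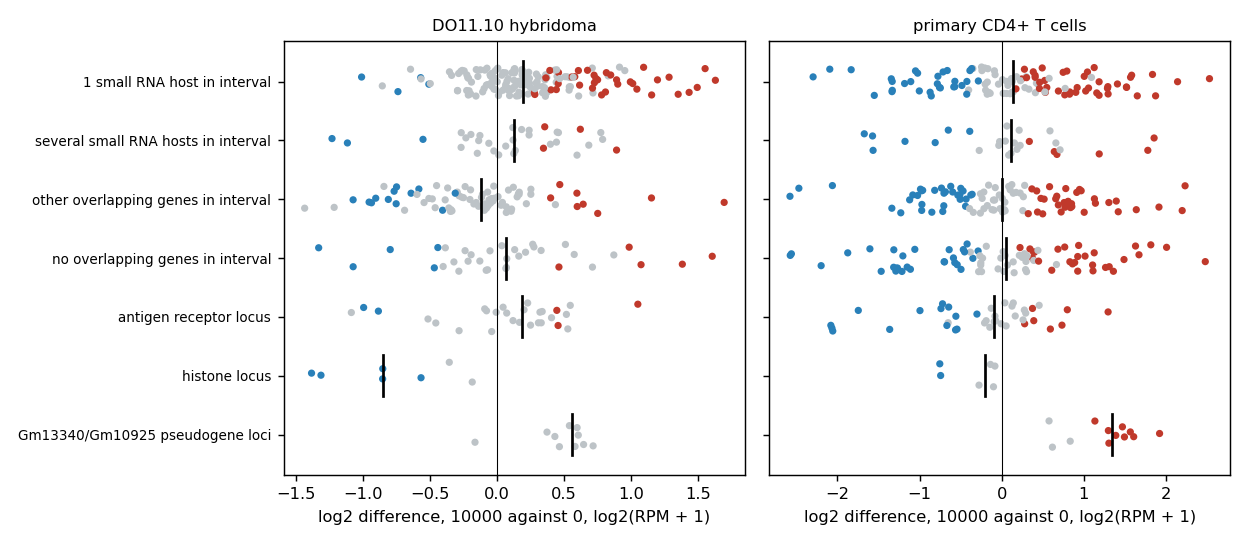
Log2 difference between the top dose and dose 0 without engagement for each cluster assigned to more than one gene, by the kind of gene in its stretch, in the hybridoma and in CD4 cells. In the hybridoma 5 of 7 histone clusters are called lower, and in CD4 cells 9 of 12 clusters at the pseudogene loci are called higher.

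Clusters with a single small RNA host in their stretch held 48.6% of the RPM of the marked clusters in the hybridoma and 58.5% in CD4 cells. In the hybridoma 37 of 166 rose and 4 fell at 10000 nM (median log2 difference 0.20), beside the 13.8% and 16.2% of all clusters given above. In CD4 cells 42 of 110 rose and 30 fell (median 0.14), beside 26.2% and 38.2%. These shares of all clusters are also the background of the counts by kind that follow. Where the host was a ribosomal protein gene, the most abundant marked cluster of each of 19 hosts in the hybridoma was taken. These had a median level of 429 RPM, and 5 rose and none fell. Named clusters of a host were not counted, so the cluster taken need not be its main start. At Rpl4, Rpl12 and Rpl10 it averaged 5.35, 6.14 and 6.96 RPM. In CD4 cells the 15 such clusters had a median of 937 RPM, and 8 rose and none fell. With the other scalings 4 to 6 of the hybridoma clusters and 7 to 11 of the CD4 clusters rose, and none fell.

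The larger rises among ribosomal protein hosts in CD4 cells were at clusters of moderate level. Rpl23, a large-subunit gene, was the host of a cluster of 55 bases (chr11:97643697-97643751, minus) that held 24.3 and 24.2 RPM at dose 0 and 77.5, 79.9 and 77.8 RPM at 10000 ng/ml. The top dose lay above dose 0 in every library, by 1.65 ± 0.11 on the log2 scale (SE; limma adjusted p = 2.2e-10). The Rps2 cluster of 65 bases (chr17:24857022-24857086, plus) averaged 43.3 RPM over all CD4 libraries and rose by 1.29 ± 0.11 (adjusted p = 8.51e-09). At Rps13 the cluster of 15 bases held 2014 and 2134 RPM at dose 0 and 2719, 2812 and 2726 RPM at the top dose, a rise of 0.41 ± 0.07 (adjusted p = 7.88e-05). Clusters at Rpsa, Rps3, Rps20 and Rpl27a, of 937 to 7898 RPM, gave log2 differences between -0.20 and -0.04 that did not pass the test. In the hybridoma Rps13 rose from 1750 and 1665 RPM to 2295, 2042 and 2275 RPM (0.37 ± 0.10, adjusted p = 0.0117), and Rpl23, Rpl6 and Rpl27a rose by 0.28 to 0.40. With the replicate number as a block the calls at Rpl6 (adjusted p = 0.0581) and Rpl27a (adjusted p = 0.0612) were lost.

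Gas5, a noncoding host of many box C/D small nucleolar RNAs, gave 7 clusters in CD4 cells that did not move together. Its main cluster, the single base chr1:162965880-162965880 (plus), held 3084 and 2923 RPM at dose 0, 3064 and 3146 RPM at 10 ng/ml, 2478 and 2252 RPM at 100 ng/ml, 1654 and 1617 RPM at 1000 ng/ml, and 1850, 1651 and 1738 RPM at 10000 ng/ml. It fell with dose down to 1000 ng/ml, and the top dose lay below dose 0 in every library (-0.78 ± 0.08, limma adjusted p = 1.6e-07). A cluster of 4 bases upstream (chr1:162965294-162965297) went the other way. It held 57.5 and 52.0 RPM at dose 0, 84.6 and 91.1 RPM at 100 ng/ml, 165 and 156 RPM at 1000 ng/ml, and 160, 144 and 139 RPM at 10000 ng/ml (1.41 ± 0.09, adjusted p = 2.29e-10). A wide cluster downstream of both (chr1:162966501-162966642, 142 bases) rose from 0.286 and 0.459 RPM to 5.29, 5.39 and 4.51 RPM (2.14 ± 0.26, adjusted p = 8.39e-07). Of the 7 clusters 5 rose and 1 fell. In the hybridoma the main base held 514 and 499 RPM at dose 0 and 447, 544 and 521 RPM at 10000 nM, and the groups overlapped. A cluster of 150 bases in the downstream region (chr1:162966493-162966642) rose from 2.50 and 1.00 RPM to 5.19, 7.79 and 9.12 RPM there (1.63 ± 0.24, adjusted p = 3.59e-05).

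At 2410006H16Rik, a noncoding host of Snord49a, Snord49b and Snord65, 1 of 5 CD4 clusters rose and 3 fell. Its single-base cluster (chr11:62416377-62416377, plus) fell in CD4 cells from 2030 and 2020 RPM to 799, 740 and 872 RPM (-1.34 ± 0.13, limma adjusted p = 2.8e-08). A cluster of 40 bases some way downstream (chr11:62416620-62416659) rose from 7.58 and 10.1 RPM to 38.5, 28.2 and 35.7 RPM (1.84 ± 0.14, adjusted p = 2.53e-09). Zfas1, a noncoding host of small nucleolar RNAs antisense to the Znfx1 promoter, had 4 CD4 clusters, of which 1 rose and 2 fell. Its cluster of 4 bases (chr2:166888719-166888722, plus) fell from 1604 and 1429 RPM to 784, 666 and 749 RPM (-1.05 ± 0.09, adjusted p = 1.14e-08). A weak Zfas1 cluster of 92 bases (chr2:166890632-166890723) held 0.286 and 0.574 RPM at dose 0 and 1.71, 2.41 and 2.25 RPM at the top dose, a rise of 1.13 ± 0.25 (adjusted p = 0.000599). In the hybridoma the main clusters of both hosts overlapped or differed by less than the test could call, with 113 and 132 RPM against 127, 111 and 119 RPM at 2410006H16Rik and 210 and 207 RPM against 213, 249 and 224 RPM at Zfas1.

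Dancr, a noncoding host of Snora26, rose in both systems. Its cluster of 49 bases (chr5:74489106-74489154, plus) held 5.86 and 7.12 RPM at dose 0, 11.6 and 14.2 RPM at 100 ng/ml, 37.4 and 38.3 RPM at 1000 ng/ml and 42.2, 43.5 and 40.7 RPM at 10000 ng/ml. The change was 2.53 ± 0.13 on the log2 scale (limma adjusted p = 6.55e-12). With engagement it held 9.72 and 9.07 RPM at 100 ng/ml and 33.9, 32.8 and 33.5 RPM at 10000 ng/ml, below every unengaged library of the same dose. In the hybridoma it rose from 61.8 and 44.0 RPM to 85.3, 95.6 and 90.7 RPM (0.78 ± 0.12, adjusted p = 8.65e-05). Over the Snhg, Gas5, Zfas1 and Dancr hosts, the most abundant marked cluster rose at 4 of 9 and fell at none in the hybridoma. In CD4 cells it rose at 3 and fell at 3 of 7. With edgeR and DESeq2 the CD4 split was 4 higher and 2 lower.

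**Figure D3:**
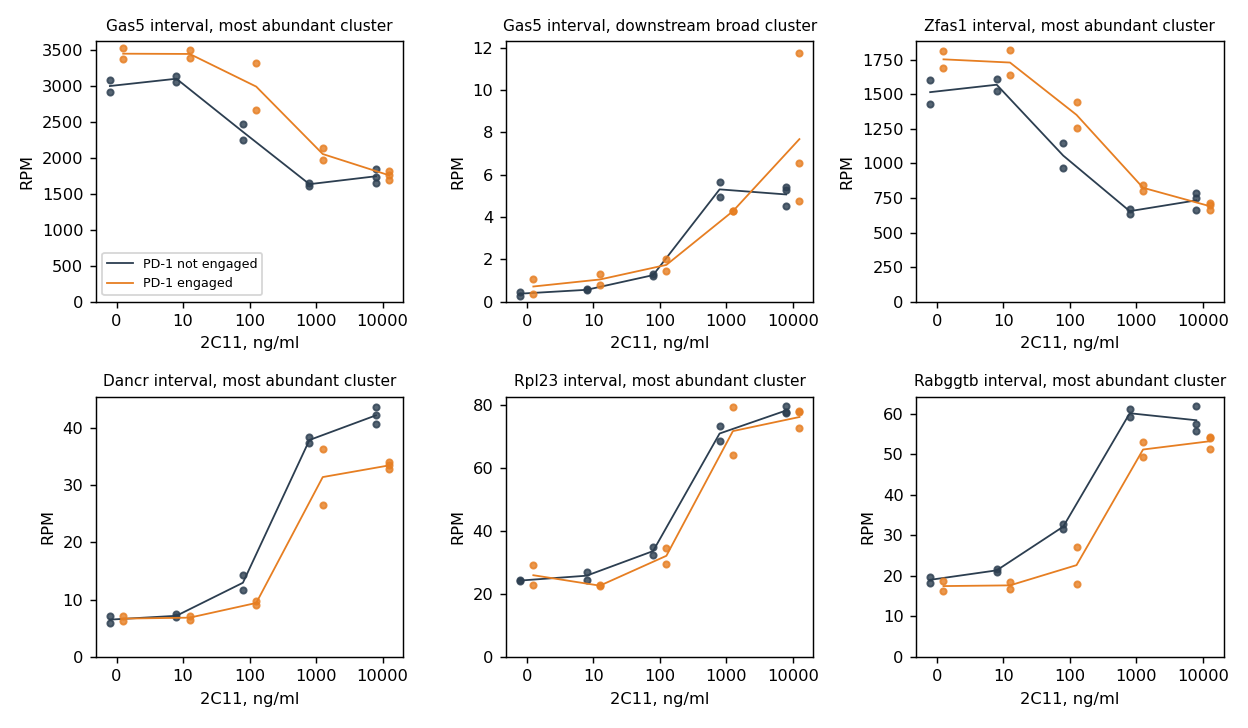
Level (RPM) in each CD4 library of clusters in the stretches of Gas5 (main and wide downstream cluster), Zfas1, Dancr, Rpl23 and Rabggtb, by dose of 2C11 (ng/ml), with and without PD-1 engagement. The main Gas5 and Zfas1 clusters are lower at 1000 and 10000 ng/ml than at dose 0, and the other 4 clusters are higher.

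Other hosts gave changes of both signs at their most abundant marked clusters. In the hybridoma 9 of 65 were higher and 3 lower (all clusters 13.8% and 16.2%). In CD4 cells 17 of 53 were higher and 17 lower (all clusters 26.2% and 38.2%). The higher counts and the CD4 lower count lie near these shares. Rabggtb, the beta subunit of the enzyme that prenylates Rab proteins, had a cluster of 30 bases (chr3:153575914-153575943, minus) with 19.8 and 18.3 RPM at dose 0 and 62.0, 55.9 and 57.5 RPM at the top dose in CD4 cells (1.57 ± 0.12, limma adjusted p = 2.06e-09). Tomm20, a receptor of the mitochondrial import machinery, went from 75.9 and 64.5 RPM to 204, 184 and 252 RPM in CD4 cells (1.58 ± 0.13, adjusted p = 5.41e-09) and from 206 and 198 RPM to 288, 263 and 253 RPM in the hybridoma (0.40 ± 0.10, adjusted p = 0.00535). Among the falls was a cluster in the stretch of the host Eif4g3, a translation initiation scaffold, with a named cluster of Hp1bp3 nearest, 536 bases away. This cluster (chr4:137772528-137772558, plus) went from 75 and 76.1 RPM to 17.5, 18.3 and 15.2 RPM in CD4 cells (-2.09 ± 0.14, adjusted p = 3.61e-10). A cluster 777 bases from a named cluster of Cbfb, the partner subunit of RUNX factors (chr8:107695455-107695469, plus), went from 9.43 and 10.6 RPM to 1.71, 1.58 and 0.601 RPM (-2.30 ± 0.23, adjusted p = 6.18e-08). Where a host had more than 1 cluster, the lesser clusters gave a median of 0.28 in the hybridoma and 0.41 in CD4 cells, and the most abundant clusters of the same hosts gave 0.17 over 39 hosts and -0.15 over 19 hosts. This difference was not tested.

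Some host stretches held microRNAs. The cluster chr11:74985948-74986063 (plus, 116 bases) lay in the stretch of 1700016P03Rik, which holds Mir212 and Mir132. Their mature sequences from RefSeq (GRCm38.p6) are shown because both 3p arms share a seed, bases 2 to 8, in capitals.
miR-132-3p: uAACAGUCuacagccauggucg
miR-212-3p: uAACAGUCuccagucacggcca
miR-132-5p: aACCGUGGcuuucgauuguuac
miR-212-5p: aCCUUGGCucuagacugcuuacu
The cluster held 0.5 and 0.459 RPM in CD4 cells at dose 0, 5.47 and 5.58 RPM at 100 ng/ml, 4.64 and 2.99 RPM at 1000 ng/ml and 4.86, 3.16 and 5.56 RPM at 10000 ng/ml. All 7 libraries at these 3 doses lay above dose 0, and the top dose was higher by 1.88 ± 0.33 (limma adjusted p = 6.09e-05). CAGE reads the capped precursor, and the mature microRNAs were not measured. The stretch of 2610318N02Rik, which holds Mir130b and Mir301b, gave a cluster of 4 bases (chr16:17125231-17125234, minus) that averaged 26.4 RPM and rose by 1.024 ± 0.18 in CD4 cells (adjusted p = 5.57e-05). In the hybridoma it averaged 23.9 RPM and gave -0.29 ± 0.20 (adjusted p = 0.269).

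Histone clusters took 14.2% of the RPM of the marked clusters in the hybridoma, from 7 clusters, and 5 of the 7 fell. The cluster between Hist2h2ab and Hist2h2be (chr3:96024812-96024817, minus, 6 bases) held 3024 and 2517 RPM at dose 0, 2704 and 2910 RPM at 1 nM, 1937 and 1822 RPM at 100 nM, 1570 and 1715 RPM at 1000 nM and 1460, 1615 and 1517 RPM at 10000 nM. Every library from 100 nM upward lay below every library at 0 and 1 nM, and the top dose differed by -0.85 ± 0.10 (limma adjusted p = 5.33e-06). In the Hist3 region the cluster chr11:58768184-58768186 (plus) went from 837 and 614 RPM to 321, 478 and 407 RPM (-0.85 ± 0.23, adjusted p = 0.00972). The cluster 1231 bases from an opposite-strand cluster of Hist1h2bb (chr13:23837390-23837391, minus) went from 3900 and 3926 RPM to 2540, 2377 and 3063 RPM (-0.57 ± 0.20, adjusted p = 0.0439). That call was lost in 13 of 35 alternatives, over which the adjusted p ranged from 0.00182 to 0.173. A weak cluster 1447 bases from Hist1h1e (chr13:23712964-23712978, minus) fell from 10.8 and 7.49 RPM to 2.89, 2.98 and 3.21 RPM (-1.31 ± 0.19, adjusted p = 2.96e-05). With other scalings 4 of 7 fell, and without both number 2 libraries of dose 0 also 4 of 7, with a median of -0.98.

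In CD4 cells 2 of 6 histone clusters fell, which is near the 38.2% of all clusters called lower. The Hist3 cluster went from 480 and 515 RPM to 288, 270 and 328 RPM (-0.75 ± 0.10, limma adjusted p = 2.14e-06) and the Hist1h1e cluster from 2.50 and 2.30 RPM to 1.024, 0.877 and 1.20 RPM (-0.74 ± 0.20, adjusted p = 0.00348). At Hist1h2bb the values were 2419 and 2242 RPM at dose 0 and 2169, 1905 and 2579 RPM at the top dose, and the groups overlapped. There the sign of the difference depended on scaling (-0.08 with library totals, 0.10 with edgeR and 0.11 with DESeq2). At 1000 ng/ml this cluster held 1357 and 1561 RPM, below every library at dose 0 and at 10000 ng/ml.

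The antigen receptor loci gave 28 clusters in the hybridoma and 39 in CD4 cells, with 1.35% of the RPM of the marked clusters in the hybridoma. In the hybridoma 3 rose and 2 fell, beside 13.8% and 16.2% of all clusters. In CD4 cells 7 rose and 14 fell, beside 26.2% and 38.2%, so the count of falls lies near the share of all clusters. The CD4 median was -0.09, and it turned to 0.08, 0.02 and 0.04 with quantile normalization, edgeR and DESeq2. Neighbouring clusters of the receptor beta locus moved in opposite directions. In CD4 cells a cluster of 25 bases (chr6:41492548-41492572, plus) fell from 68.2 and 71.5 RPM to 26.6, 27.1 and 25.8 RPM (-1.36 ± 0.12, limma adjusted p = 9.19e-09). A cluster of 34 bases beginning under 200 bases away (chr6:41492737-41492770, plus) rose from 92.9 and 92.4 RPM to 161, 156 and 169 RPM (0.80 ± 0.08, adjusted p = 1.05e-07). The hybridoma cluster at the second place (chr6:41492753-41492766) also rose, from 315 and 297 RPM to 412, 440 and 409 RPM (0.46 ± 0.11, adjusted p = 0.00303). At the first place the hybridoma held 56.8 and 47.6 RPM at dose 0 and 45.9, 57.5 and 43.9 RPM at the top dose, and the groups overlapped.

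In the immunoglobulin heavy chain region, 7 CD4 clusters lay between named clusters of Ighm and Gm16947, of which 4 fell and 1 rose. A cluster of 168 bases (chr12:114663594-114663761, minus) went from 15.3 and 14.5 RPM to 3.41, 2.32 and 2.70 RPM (-2.07 ± 0.20, limma adjusted p = 4.26e-08), and one of 20 bases (chr12:114662898-114662917) from 4 and 5.85 RPM to 0.512, 0.526 and 0.15 RPM (-2.08 ± 0.25, adjusted p = 8.71e-07). The most abundant of the 7 (chr12:114666776-114666915, minus, 140 bases) rose from 17.8 ± 2.19 RPM (SD, n = 2) to 27.7 ± 5.67 RPM (n = 3; 0.59 ± 0.19, adjusted p = 0.00917). It was also higher with PD-1 engagement, by 0.73 ± 0.10 over the stimulated doses (adjusted p = 4.51e-05). Immunoglobulin transcripts come mainly from B cells. The summed presenting-cell markers were 635 and 742 RPM in the dose 0 libraries and 643, 927 and 579 RPM in the top-dose libraries, and their part in these differences was not tested.

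A small set of clusters lay beside Gm13340, Gm13341, Gm10222 or Gm10925, nuclear pseudogenes that resemble mitochondrial genes. Tags from mitochondrial RNA and from these loci cannot be told apart here. In CD4 cells 9 of 12 such clusters rose at the top dose and none fell, with a median of 1.35. The cluster chr2:22445043-22445170 (minus, 128 bases), 21 bases from a named Gm13340 cluster, held 49.8 and 52.6 RPM at dose 0, 94.0 and 67.7 RPM at 10 ng/ml, 65.2 and 46.8 RPM at 100 ng/ml, 199 and 127 RPM at 1000 ng/ml and 140, 134 and 134 RPM at 10000 ng/ml. The values overlapped dose 0 up to 100 ng/ml and lay above it at 1000 and 10000 ng/ml (1.39 ± 0.26 at the top dose, limma adjusted p = 0.000112). In the hybridoma none of 10 was called, with a median of 0.56, and the 10 clusters summed to 738 and 563 RPM at dose 0 and to 790, 843 and 1410 RPM at 10000 nM.

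**Figure D4:**
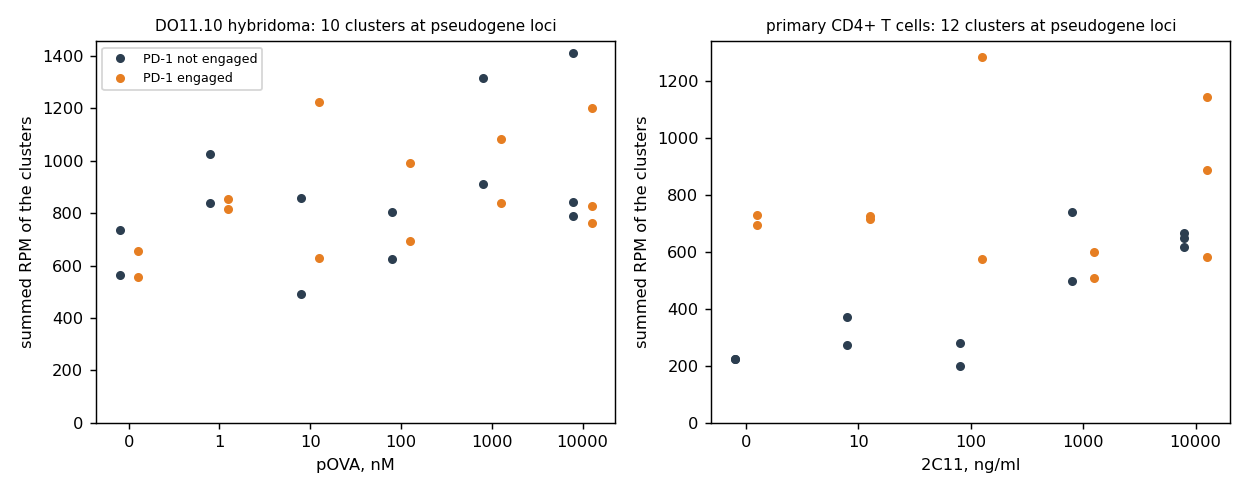
Summed level (RPM) of the clusters beside Gm13340, Gm13341 and Gm10222 or Gm10925 in each library, by dose and PD-1 engagement, in both systems. In CD4 cells the engaged dose 0 libraries hold 731 and 694 RPM and the unengaged ones 223 and 224 RPM.

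Beyond these groups, stretches without a small RNA host gave some of the largest differences. In CD4 cells a cluster 2320 bases from a named cluster of Nme1, a nucleoside diphosphate kinase that MYC is known to induce (chr11:93829572-93829602, minus), rose from 191 and 208 RPM to 749, 815 and 707 RPM (1.92 ± 0.12, limma adjusted p = 8.12e-11). A cluster between Bcl2a1d and Tmed3 (chr9:89094139-89094163, plus), in a stretch with Bcl2a1b, a survival gene of the BCL2 family, rose from 39.3 and 31.3 RPM to 170, 162 and 176 RPM (2.23 ± 0.16, adjusted p = 8.39e-10). The Bcl2a1 copies are near-identical, and reads may be split among them. Near Sfi1 a cluster of 45 bases (chr11:3093587-3093631, minus) went from 0.214 and 0.230 RPM to 4.10, 5.13 and 4.66 RPM (2.20 ± 0.19, adjusted p = 8.64e-09). A cluster 6115 bases from 0610007C21Rik (chr5:31357151-31357231, plus) rose from 10.4 and 9.18 RPM to 40.1, 45.7 and 41.3 RPM (2.01 ± 0.17, adjusted p = 5.73e-09).

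The largest falls in CD4 cells included 3 clusters in the stretch of 4930523C07Rik, a locus known only by its RIKEN clone name. The most abundant of them (chr1:161974511-161974608, plus) went from 82.2 and 83.7 RPM at dose 0 to 57.5 and 55.5 RPM at 100 ng/ml, 18.5 and 17.0 RPM at 1000 ng/ml and 12.5, 12 and 14.9 RPM at 10000 ng/ml (-2.57 ± 0.12, limma adjusted p = 3.47e-12). A single-base cluster between Mnda and Fh1, in a stretch with the interferon-inducible genes Ifi203 and Mndal (chr1:175872586-175872586, minus), fell from 92.3 and 107 RPM to 16.8, 13.9 and 17.0 RPM (-2.58 ± 0.12, adjusted p = 2.09e-12). Between Mvp and Maz a cluster of 91 bases (chr7:134164603-134164693, minus) fell from 10.1 and 10.2 RPM to 0.853, 1.54 and 0.751 RPM (-2.47 ± 0.19, adjusted p = 2.36e-09). The cluster between Shf and Slc28a2 (chr2:122252125-122252135, plus) went from 26.2 and 25.7 RPM to 6.31, 5.70 and 4.51 RPM (-2.06 ± 0.71, adjusted p = 0.0162), and it ranged from 0.536 to 8.45 RPM between both libraries at 1000 ng/ml.

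In the hybridoma the named changes outside the histone group and the group with a single host lay between -1.33 and 1.61 where a fold is given. The cluster between 2610020C07Rik and Snx29 (chr16:11254069-11254123, minus) held 8.62 and 10.8 RPM at dose 0, 9.49 and 10.96 RPM at 10 nM, 21.3 and 21.2 RPM at 100 nM and 39.1, 27.7 and 28.8 RPM at 10000 nM (1.61 ± 0.17, limma adjusted p = 7.25e-07). A cluster in the stretch of Mrps6 and Slc5a3 (chr16:92058293-92058363, plus) had no tag in either dose 0 library and held 1.48, 3.15 and 2.31 RPM at 10000 nM, so that no fold is given. A cluster of 82 bases (chr3:9403007-9403088, plus) that lay 206970 bases from its nearest named cluster, of Zfp704 on the other strand, fell from 9.27 and 6.49 RPM to 1.81, 3.24 and 2.57 RPM (-1.33 ± 0.25, adjusted p = 0.000657). The stretch of the small RNA host Rpl13a also holds the host Gm45713 and Flt3l. Its cluster chr7:52391447-52391519 (minus) fell from 19.1 and 11.3 RPM to 6.93, 5.78 and 4.62 RPM (-1.23 ± 0.19, adjusted p = 8.16e-05). In CD4 cells that place also fell, by 1.18 on the log2 scale, while the named Rpl13a cluster 7330 bases away rose by 0.60.

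Response of a marked cluster and of its nearest named cluster was compared directly, as the difference of the 2 log2 changes at the top dose. In the hybridoma 45 of 206 pairs within 10 kb differed (21.8%, all pairs 23.0%), with the marked cluster above its neighbour in 31. In CD4 cells 112 of 212 pairs differed (52.8%, all pairs 43.8%), with the marked cluster above in 60. Both members of a pair were called in opposite directions in 6 hybridoma and 29 CD4 pairs, and in the same direction in 15 and 50. These joint calls were not counted over all pairs. They therefore do not show whether marked clusters differ in this from other neighbours.

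Pairs called in opposite directions include well separated neighbours and divergent starts. In CD4 cells a cluster of 441 RPM (chr10:127520360-127520371, plus) had Atp5b as the only small RNA host in its stretch. It rose from 386 ± 14.05 RPM (SD, n = 2) to 566 ± 29.4 RPM (n = 3). Its nearest named cluster, 8270 bases away, was that of Baz2a, a component of the chromatin complex that silences ribosomal DNA. The Baz2a cluster fell from 44.0 ± 6.17 to 6.33 ± 1.52 RPM, and the log2 changes differed by 3.18 ± 0.18 (SE; limma adjusted p = 1.28e-09). At chr6:91466006-91466039 (plus), 157 bases from the opposite-strand start of Xpc, a DNA damage sensor, the marked cluster rose from 108 ± 3.53 to 188 ± 8.55 RPM. Xpc fell from 25.5 ± 2.23 to 9.36 ± 2.28 RPM, and the difference was 2.18 ± 0.19 (adjusted p = 2.2e-07). Beside Mrps18b the order was reversed: the marked cluster 585 bases away (chr17:36053928-36053929, plus), in the stretch of the host Ppp1r10, fell from 45.3 ± 3.68 to 30.3 ± 4.49 RPM. Mrps18b rose from 25.2 ± 2.13 to 86.3 ± 5.80 RPM (difference -2.30 ± 0.23, adjusted p = 5.79e-07). In the hybridoma the wide Gas5 cluster and the opposite-strand Zbtb37 cluster 1534 bases away differed by 2.39 ± 0.28 (adjusted p = 6.95e-06).

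Engagement of PD-1 called none of the marked clusters in the hybridoma, averaged over the stimulated doses, beside 0.0999% of all clusters higher and 1.72% lower by limma. An unadjusted p under 0.05 was reached by 21. Quantile normalization called 1, and edgeR and DESeq2 on recovered tags called none. With the replicate number of each dose as a block, 7 were higher and 11 lower, beside 1.56% and 4.65% of all clusters. The smallest p without the block was that of the cluster near Hist1h1e (0.30 ± 0.09, adjusted p = 0.119), followed by the cluster between 2610020C07Rik and Snx29, which gave -0.28 ± 0.08 (adjusted p = 0.12). At 100 nM the latter held 13.3 and 14.7 RPM with engagement and 21.3 and 21.2 RPM without. The Gas5 cluster chr1:162966797-162966949 gave -0.36 ± 0.11 (adjusted p = 0.135), and a cluster 228 bases from an opposite-strand Hnrnpd cluster (chr5:100407144-100407276, plus) gave -0.25 ± 0.08 (adjusted p = 0.159). With the block, the clusters at Dancr and Gas5 were among those lower, and the 7 higher were 3 histone clusters, 3 antigen receptor clusters and the Rpl13a stretch. The heavy chain cluster chr12:114666781-114666878 gave 0.77 ± 0.28 (adjusted p = 0.00443 with the block, 0.313 without). The part of the presenting-cell markers, given above by library, was not tested.

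In CD4 cells 53 of 371 were higher with engagement (14.3%, all clusters 7.19%) and 79 lower (21.3%, all clusters 28.0%), averaged over the stimulated doses. Clusters with no symbol gave 16.1% higher and 7.22% lower, and named clusters 4.55% and 33.9%. The split of the marked clusters depended on scaling. It was 63 higher and 32 lower after quantile normalization, 77 and 32 with edgeR, and 73 and 26 with DESeq2, against a median of all clusters of -0.10 with the deposited library totals. By dose, the counts were 14 higher and 11 lower at dose 0 (all clusters 2.67% and 6.83%), 2 and 0 at 10 ng/ml (0.151% and 0.272%), 31 and 66 at 100 ng/ml (4.94% and 24.5%), 17 and 22 at 1000 ng/ml (2.02% and 10.5%), and 9 and 6 at 10000 ng/ml (3.31% and 1.49%). The engaged libraries at 100 ng/ml and above also held 856 to 1237 RPM of presenting-cell markers against 545 to 927 RPM without engagement, and the part of these markers was not tested.

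The pseudogene clusters gave the 6 largest rises with engagement in CD4 cells, and 11 of 12 were called higher. The cluster of 128 bases described above held 170 and 154 RPM in the engaged dose 0 libraries, 164 and 178 RPM at 10 ng/ml, 320 and 152 RPM at 100 ng/ml, 139 and 111 RPM at 1000 ng/ml and 143, 197 and 252 RPM at 10000 ng/ml. Averaged over the stimulated doses it was higher by 0.80 ± 0.14 (limma adjusted p = 0.000276). The engaged values lay above the unengaged ones at 0, 10, 100 and 10000 ng/ml and overlapped them at 1000 ng/ml. At dose 0, where 9 of 12 were higher with a median of 1.37, the unengaged libraries are the same ones that serve as the baseline for stimulation. The highest sum of the 12, 1286 RPM, was in replicate 1 of the engaged 100 ng/ml group, whose library was the smallest of the series, and its partner held 577 RPM. Over all alternatives run, single libraries left out included, the difference of the 128-base cluster stayed between 0.67 and 0.94.

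Among the clusters lower with engagement, the rule for named clusters gave 6. The cluster of 38 bases in the stretch of Sesn2, a stress-induced inhibitor of mTORC1 (chr4:132066378-132066415, minus), held 22.4 and 19.8 RPM at 100 ng/ml without and 14.02 and 14.1 RPM with engagement, and 29.4, 24.3 and 31.2 RPM against 22.5, 22.1 and 21.4 RPM at 10000 ng/ml. It was lower by -0.46 ± 0.07 over the doses (limma adjusted p = 0.000109), and at these 2 doses the groups did not overlap. The cluster 128 bases from an opposite-strand start of Rxrb, a retinoid X receptor (chr17:34168511-34168613, minus), held 55.8 and 69.7 RPM without and 48.2 and 35.1 RPM with engagement at 100 ng/ml (-0.42 ± 0.07 over the doses, adjusted p = 0.000375). The cluster near 0610007C21Rik fell by 0.53 ± 0.09 (adjusted p = 0.000239), that between Slc39a1 and Dennd4b by 0.53, one 353 bases from an opposite-strand cluster of Reep3 by 0.45, and one between Rac1 and Cyth3 by 0.41. All 6 were also lower with engagement at dose 0, without stimulus, by -0.57 to -0.34. The median of all clusters at dose 0 was -0.18, and 6.83% of all were called lower. There the calls by limma were at Sesn2 (-0.48, adjusted p = 0.0422), beside Rxrb (-0.55, adjusted p = 0.0322) and beside Reep3 (-0.56, adjusted p = 0.0308). The others did not pass. The main Gas5 cluster was higher with engagement over the stimulated doses (0.21 ± 0.04, adjusted p = 0.00166). At 10000 ng/ml alone it held 1760, 1697 and 1820 RPM with and 1850, 1651 and 1738 RPM without engagement, and the groups overlapped. Dose 0 is no part of that mean. There the cluster held 3530 and 3378 RPM with and 3084 and 2923 RPM without engagement (limma adjusted p = 0.154). Dancr was lower (-0.27 ± 0.07, adjusted p = 0.00464). Of the most abundant marked clusters of the 15 ribosomal protein hosts, 4 were higher and 1 lower, beside 7.19% and 28.0% of all clusters. That split was 2 and 2 after quantile normalization and 7 and 0 with edgeR and DESeq2. Of those of the 53 other hosts 4 were higher and 16 lower, near the same shares of all clusters.

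Hybridoma and CD4 clusters were matched where they overlapped by at least 1 base on one strand. Of the hybridoma clusters 230 (64.6%) met 226 CD4 clusters with the mark (60.9% of these), and 43 pairs had identical coordinates. A further 50 CD4 clusters met a hybridoma cluster with a single symbol, among them Psmb9, Psmd14 and 4930523C07Rik, so the mark was not given alike in both tables. Of the 230 matches 51 were called by stimulation in the hybridoma and 154 by stimulation in CD4 cells. Both were higher in 18 and lower in 18. Such joint calls were not counted for clusters without the mark, so no background share stands beside them. The 18 higher include the wide Gas5 cluster and clusters in the stretches of Dancr, Rpl23, Rps13, Rpl6, Tomm20 and Snhg15. The 18 lower include the Hist3 and Hist1h1e clusters, the cluster between Fpgs and Sh2d3c, and clusters in the stretches of Rpl13a and Eif4g3.

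**Figure D5:**
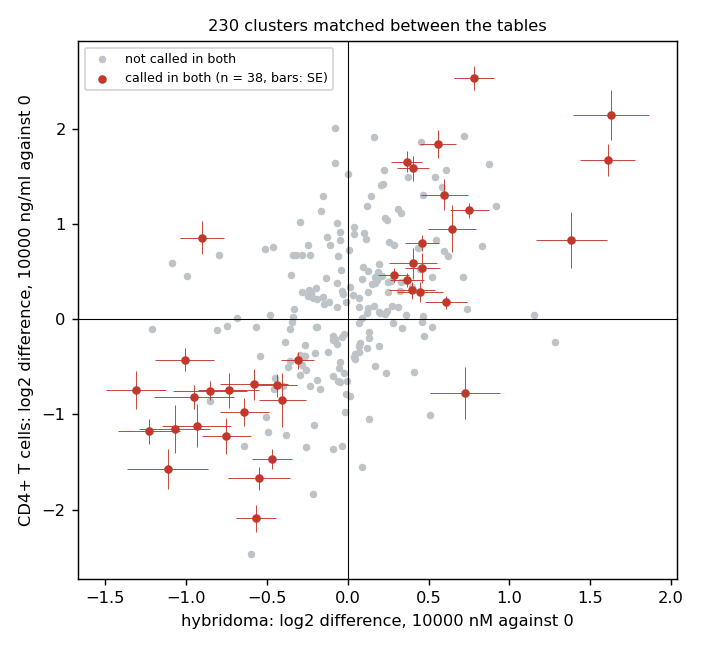
Log2 difference between the top dose and dose 0 without engagement for the 230 matched clusters, hybridoma (x axis) against CD4 cells (y axis). Of the clusters called in both systems, 18 lie in the upper right, 18 in the lower left and 1 in each of the other corners.

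The remaining 2 were called in opposite directions. The cluster between Txnrd2 and Cdc45, in a stretch with Gnb1l (chr16:18498891-18498994, plus, hybridoma), fell from 14.5 and 16.8 RPM to 7.91, 7.96 and 7.71 RPM in the hybridoma. Its CD4 partner (chr16:18498895-18498994) rose from 7.79 and 7.002 RPM to 13.1, 15.2 and 14.3 RPM. The weak cluster at 2410006H16Rik (chr11:62416711-62416735, plus, hybridoma) rose from 0.830 and 1.30 RPM to 2.97, 2.36 and 1.93 RPM, and the CD4 cluster that meets it in 1 base (chr11:62416735-62416752) fell from 3.36 and 1.72 RPM to 0.682, 1.36 and 1.05 RPM. The difference between the systems was not tested, since cells, stimuli and doses differ.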

How the data were processed

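CAGE tag clusters of 48 libraries were analysed from 2 tables, one per system. Per the labels' protocols RNA was extracted with TRIzol. The deposited values are RPM, tags per library total scaled by the authors. The submitters' processing notes name BWA 0.7.12, HISAT2 2.0.5 and build mm9, without their roles. Replicates were not pooled. Whole tags were recovered from the RPM steps (tolerance 0.15 tag) and used only for the edgeR 4.0.16 and DESeq2 1.42.0 alternatives and for library totals.

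The test was limma 3.58.1 (trend) in R 4.3.3 on log2(RPM + 1), which understates changes of low clusters, for clusters that reached 1 RPM in 2 or more libraries. All groups of a system were fitted together, with Benjamini-Hochberg adjustment over all its clusters and a threshold of 0.05. Adjusted p-values in the text are from this fit unless another tool is named. PD-1 was tested as the mean over the stimulated doses and at each dose. Pairs were tested as the difference between a cluster and its nearest named cluster within 10 kb. The procedure was tested on simulated data with 100 clusters changed per fold size: at the top dose limma recovered 75% of 2-fold and 18% of 1.5-fold changes in the hybridoma, and 59% and 11% in CD4 cells.

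Named clusters were the 10 most abundant, the widest 3, those with the largest called changes in each direction and, where PD-1 called none, those of smallest p. Kinds, hosts and further clusters at Gas5, Zfas1, Dancr, 2410006H16Rik, Rpl23, Rabggtb, Tomm20, histone and receptor loci, and the pairs described, were chosen after values were seen. The members and lists were chosen with earlier results of these data known. Gene order and RefSeq sequences are from GRCm38, and no coordinate was converted. A few clusters that met the naming rule are not reported here. Libraries with the same replicate number deviated together more in the hybridoma (correlations of deviations 0.208 to 0.656) than in CD4 cells (-0.0185 to 0.208). The main fit did not use replicate numbers, and the replicate block did.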

Additional observations from a re-analysis of the deposited data

Results flagged for a closer look

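Both matched places called in opposite directions by stimulation in the hybridoma and in CD4 cells are listed here, because every top-dose library moved one way in one system and the other way in the other. The difference between the systems was not tested. Between Txnrd2 and Cdc45 the log2 difference at the top dose was -0.9034 in the hybridoma and 0.8549 in CD4 cells. At 2410006H16Rik it was 0.7261 in the hybridoma and -0.7761 in CD4 cells, at clusters that share 1 base and hold under 4 RPM in the libraries compared.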

How the results depend on the processing

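Of 86 values of named clusters 65 were called, and all 65 kept their direction under every alternative run, 53 of them also their side of the threshold. In the hybridoma, leaving out 1 library gave 33 to 60 higher and 20 to 35 lower at 10000 nM, with 33 and 20 without replicate 2 of dose 0. The counts were 0 to 11 at 1 nM, 0 to 10 at 10 nM, 9 to 39 at 100 nM (32 with all; 9 and 15 without replicate 1 or 2 of 100 nM, 11 without replicate 2 of dose 0), 44 to 97 at 1000 nM (93 with all; 44 without replicate 2 of dose 0, 45 without replicate 2 of 1000 nM), 0 to 1 for PD-1 and 28 to 46 for pairs (28 without replicate 2 of dose 0, 29 without replicate 3 of 10000 nM). Without replicate 1 of dose 0 the counts at 1 and 10 nM were 11 and 10. Without both number 2 libraries of dose 0, chosen after seeing the data, 34 were higher at 10000 nM, 13 were called at 100 nM, 45 at 1000 nM and 1 for PD-1. With the replicate block PD-1 called 18, where the fit without it called 0, and quantile normalization called 1. DESeq2 called 1 at 10 nM. In CD4 cells the count at 100 ng/ml was 74, and 32 to 81 without 1 library (42 and 34 without replicate 1 or 2 of dose 0, 32 without replicate 2 of 100 ng/ml). Pairs on the same strand gave 27 (hybridoma) and 68 (CD4), pairs within 1 kb 13 and 42, and identical coordinates 43 matches. These follow from fewer pairs or a stricter match. Signs turned at the Cast-Ell2 cluster in the hybridoma (-0.0145 without replicate 1 of dose 0, up to 0.253 without replicate 2), at Rps16 in the hybridoma (-0.0290, quantile), at Rps20 in CD4 cells (0.0162 quantile, 0.0404 edgeR, 0.04997 DESeq2), at Rpsa in CD4 cells (0.0215 edgeR, 0.0307 DESeq2), and at the Hist1h2bb cluster in CD4 cells (0.104 edgeR, 0.114 DESeq2, and -0.196 to 0.0222 without 1 library). None of these was called, and the cause was not tested. One tag was worth at most 0.128 RPM in the hybridoma and 0.226 RPM in CD4 cells, which limits clusters of a few tags.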
